A study of Mus musculus with 12 samples.

Results

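The circadian clock genes examined here were Clock, Arntl, Per2, Per3, Cry1, Cry2, Nr1d1, Nr1d2, Dbp and Tef, taken by gene symbol from the table of expected counts. All 10 were found among its 22236 genes, and all 10 passed the filter on low counts that left 15853 genes for testing. Hippocampal mRNA was measured after knockdown of Hp1bp3, which encodes a chromatin protein, in the inbred strains C57BL/6J (called B6) and DBA/2J (called D2). By the labels, male mice of 3 to 5 months received an AAV9 vector, an adeno-associated virus, with a short hairpin RNA against Hp1bp3 (KD) or a scrambled hairpin (Ctrl), and tissue was taken at least 6 weeks later. There were 3 libraries for each of the 4 combinations of strain and treatment, 12 in all, and all mice carried a viral hairpin, so no uninjected mice were compared. The mice were kept on a 12 h light and dark cycle, and the labels give no time of day for tissue collection.

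The circadian clock is a feedback loop of transcription that runs in most cells, the hippocampus included. The proteins of Clock and Arntl bind E-boxes and activate the Per and Cry genes, whose proteins then repress that activation. The loop also drives Nr1d1 and Nr1d2, which repress Arntl through another element, and Dbp, Tef and Hlf, which activate genes through D-boxes. Transcripts such as Arntl therefore peak at an opposite phase of the day to Dbp, and a tissue collected at several times of day would hold different levels of both.

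The promoters of these genes carry the elements through which the loop acts, so the letters of these elements were looked for in the 250 bases before each RefSeq start site (GRCm38.p6), on both strands. RefSeq windows were matched for 9 of the 10 genes, Per2 being the exception. The D-box TTATGTAA was in 0.819% of all 32851 windows, and among the clock genes in that of Per3. The E-box CACGTG was in 6.02% of all windows and in those of Cry1 and Tef, where Tef has a window at each of 2 start sites. The variant CACGTT was in 3.85% of all windows and in those of Cry1, Cry2 and Nr1d1. No member window held TTACGTAA, TAGGTCA or TGGGTCA, which were in 0.113%, 2.23% and 3.24% of all windows. Such matches describe letters only. The stretches with TTATGTAA or CACGTG are given 5′ to 3′ along the gene, with the matched letters in capitals, because Per3 and Tef were the members with the largest knockdown estimates in B6 and Cry1 had an r of opposite sign with Dbp. They lie at chr4:151044795-151044890 (Per3, minus strand), chr10:85185086-85185153 (Cry1, minus strand), and chr15:81802526-81802574 and chr15:81811256-81811304 (Tef, plus strand). In Cry1 the first capitals are the variant read on the other strand.
Per3: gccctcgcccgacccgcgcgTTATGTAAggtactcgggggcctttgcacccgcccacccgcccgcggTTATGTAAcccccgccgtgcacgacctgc
Cry1: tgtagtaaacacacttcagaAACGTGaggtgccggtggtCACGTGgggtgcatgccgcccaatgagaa
Tef, first start site: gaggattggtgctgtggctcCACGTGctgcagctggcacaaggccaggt
Tef, second start site: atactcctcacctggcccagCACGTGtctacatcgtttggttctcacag

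Library totals ran from 18.2 to 39.4 M expected counts, and the lowest count of any member in any library was 242, for Cry1. Levels are given as CPM, counts scaled to the library total with TMM normalization. The target Hp1bp3 was at 308, 294 and 310 CPM in B6 Ctrl and at 185, 182 and 259 in B6 KD. In D2 it was at 226, 215 and 234 in Ctrl and at 177, 163 and 230 in KD, so the library labelled D2 KD 3 lay inside the Ctrl range and went against its label. The log2 fold change of Hp1bp3 in KD against Ctrl was -0.54 in B6, -0.25 in D2 and -0.39 averaged over strains. None of these passed the edgeR test used below. DESeq2 called Hp1bp3 in B6 (-0.57, adjusted p = 0.00825) and averaged over strains (-0.41, adjusted p = 0.00961). Choroid plexus markers, 8 of 8 detected, summed to between 62.9 and 196 CPM in 5 libraries (B6 Ctrl 1, B6 Ctrl 3, B6 KD 1, D2 Ctrl 1 and D2 KD 2) and to between 2750 and 5170 CPM in the other 7. Markers of neurons, astrocytes, microglia, oligodendrocytes and endothelium were above 0 in all groups. Mouse numbers in the titles ran from 32 to 38 in B6 KD and from 53 to 56 in B6 Ctrl, and from 41 to 57 in D2 KD and from 30 to 40 in D2 Ctrl. Mouse number and treatment therefore cannot be told apart within a strain, nor can mouse number and strain within Ctrl. For bulk tissue, fewer cells of a type and less RNA per cell cannot be told apart either.

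Per kilobase of merged exon in GENCODE M21, Tef was the most abundant member and Cry1 the least. Tef averaged 42.3 CPM per kb over the 12 libraries (range 26.8 to 57.7), followed by Nr1d1 at 31.2 (19.5 to 39.4), Cry2 at 21.9 (18.2 to 26.4) and Nr1d2 at 17.9 (8.61 to 23.8). Dbp averaged 9.46 CPM per kb (3.37 to 12.9), Per2 7.43 (4.86 to 10.0), Arntl 5.73 (4.96 to 6.73), Per3 4.54 (1.78 to 6.87), Clock 4.47 (3.52 to 5.85) and Cry1 4.17 (2.88 to 6.15). The ranges of neighbours in this order overlapped, while those of Cry2 and the genes above it lay apart from those of Dbp and the genes below it. By that annotation (GRCm38) the genes are Clock at chr5:76209868-76304792, Arntl at chr7:113207465-113314126, Per2 at chr1:91415982-91459324, Per3 at chr4:151003652-151044665, Cry1 at chr10:85131700-85185064, Cry2 at chr2:92403646-92434043, Nr1d1 at chr11:98767932-98775333, Nr1d2 at chr14:18204054-18239127, Dbp at chr7:45705088-45710203 and Tef at chr15:81802421-81826863. Nr1d1 shares 1075 bp with the opposite gene Thra, Dbp shares 737 bp with the opposite gene Sphk2, and Per3 lies within the span of Camta1 on the same strand. The strand setting of the counting is not given in the sources used here, so the counts of Nr1d1 and Dbp are uncertain. The overlap of Per3 with Camta1 is one of gene spans, and shared exons were not looked for. Expected counts of Per3 were whole numbers in all 12 libraries. A part of Camta1 in the count of Per3 was not tested.

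The first comparison asked whether the knockdown moved the clock genes. Tef, a D-box activator on chromosome 15, was lower in B6 KD and was the 1 member of 10 that passed the test there. The edgeR quasi-likelihood test called 418 of all 15853 genes in B6, or 2.64%. Tef stood at 454, 369 and 434 CPM in B6 Ctrl and at 276, 257 and 211 CPM in B6 KD, so that every KD library was below every Ctrl library. Its log2 fold change was -0.76 ± 0.16 (SE, edgeR adjusted p = 0.0435), a KD mean at 59.2% of that of Ctrl. In D2, Tef was at 398, 367 and 359 CPM in Ctrl and at 223, 293 and 358 in KD. The D2 KD libraries were again all below the Ctrl libraries, although the library labelled D2 KD 3 was so by less than 1 CPM. The D2 difference was -0.36 ± 0.16 (SE, edgeR adjusted p = 1), and the difference between strains in the KD change did not pass (0.39 ± 0.23, adjusted p = 0.894). Averaged over strains the estimate was -0.56 ± 0.12 (SE, edgeR adjusted p = 0.0587). Dropping D2 KD 3 from the fit put the averaged Tef estimate past the threshold, at -0.65 (edgeR adjusted p = 0.0128), and that in D2 was -0.54 (adjusted p = 0.472).

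The call on Tef in B6 lay close to the threshold. Of 12 fits without 1 library each, 7 lost it (adjusted p from 0.0221 to 0.189), among them all 3 fits without a B6 KD library and those without B6 Ctrl 1, B6 Ctrl 3, D2 Ctrl 1 or D2 Ctrl 2. The estimate without 1 library ranged from -0.87 to -0.68. Adding the total count as covariate gave -0.74 (edgeR adjusted p = 0.0712), adding a choroid plexus score -0.68 (adjusted p = 0.0765) and adding the mouse number -0.43 (adjusted p = 1), and under each of these covariates 0 genes in all were called in B6. Among B6 libraries with low choroid plexus markers Tef was at 454 and 434 CPM in Ctrl and at 276 in KD, and among those with high markers at 369 in Ctrl and at 257 and 211 in KD. Other markers moved with treatment in B6. The summed level of 8 interferon response genes was between 30.3 and 42.7 CPM in B6 Ctrl and between 270.0 and 940.0 in B6 KD, and that of 6 microglial markers between 254 and 302 in Ctrl and between 354 and 568 in KD. The summed level of 5 astrocyte markers was between 2360 and 2550 CPM in B6 Ctrl and between 3180 and 4390 in KD, but its members did not move together. Gfap averaged 606 CPM in B6 Ctrl and 1964 in B6 KD, Aldoc averaged 762 and 586, and 1 of 5, Aqp4, was called. The summed level of 6 neuronal markers overlapped, between 5340 and 5870 CPM in B6 Ctrl and between 4630 and 5710 in KD. Of these, 4 had lower and 2 higher estimates. Rbfox3 was between 236 and 284 CPM in Ctrl and between 153 and 207 in KD, and Snap25 between 1854 and 1926 and between 1557 and 1782. Of the neuronal markers 0 of 6, of the microglial markers 0 of 6 and of the interferon response genes 8 of 8 were called by edgeR. The part of all these markers in the Tef difference was not tested.

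**Figure D1:**
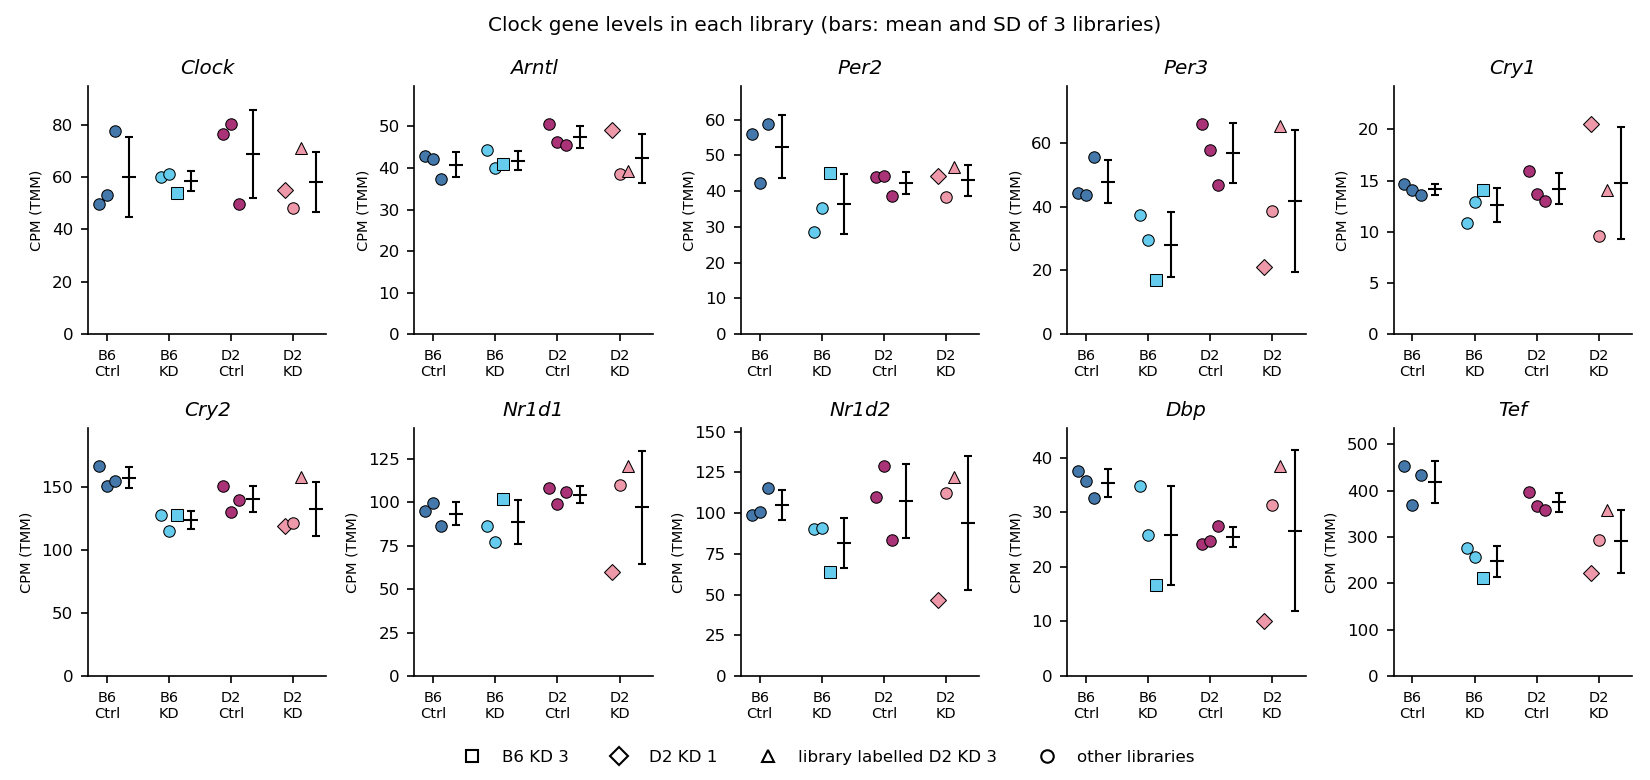
Levels of the 10 clock genes in CPM with TMM normalization (vertical axes from 0), for the 3 libraries of each strain and treatment group, with the mean and SD beside them. Symbols set apart B6 KD 3 (square), D2 KD 1 (diamond) and the library labelled D2 KD 3 (triangle), and Tef shows 3 B6 KD libraries between 211 and 276 CPM under Ctrl libraries between 369 and 454.

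The repressors of the loop gave lower estimates in B6 KD, but none of the 4 passed. Per2, a core repressor that also responds to light and neuronal activity, was at 56.04, 42.4 and 58.8 CPM in B6 Ctrl and at 28.5, 35.3 and 45.2 in B6 KD. The groups overlapped through Ctrl 2 and KD 3. The B6 difference was -0.53 ± 0.17 (SE, edgeR adjusted p = 0.110), and without B6 KD 3 it passed at -0.75 (adjusted p = 0.0362). This was the 1 of 12 fits without 1 library in which Per2 passed in B6. In D2 Per2 was between 38.7 and 44.2 CPM in Ctrl and between 38.2 and 46.7 in KD, with a difference of 0.02 ± 0.17. The KD change of Per2 differed between strains by 0.55 ± 0.24 (SE, edgeR adjusted p = 0.831), which did not pass.

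Per3, a Per paralog that is not required for the core loop, varied widely. In B6 it was at 44.4, 43.6 and 55.8 CPM in Ctrl and at 37.4, 29.5 and 17.1 in KD. Each KD library was below each Ctrl library, with KD 3 the lowest. The log2 fold change in B6 was -0.78 ± 0.37 (SE, edgeR adjusted p = 0.261). In D2 it was at 66.03, 57.7 and 47.0 CPM in Ctrl and at 21.2, 38.8 and 65.4 in KD, which put the KD libraries on both sides of the lowest Ctrl library. The D2 difference of -0.44 ± 0.36 became -0.14 without D2 KD 1 and -0.92 without the library labelled D2 KD 3.

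Cry2, the more abundant of the Cry repressors here, was at 167, 151 and 155 CPM in B6 Ctrl and at 128, 115 and 128 in B6 KD. The groups did not overlap, with an SD of 8.39 CPM in Ctrl and 7.24 in KD. The difference was -0.35 ± 0.11 (SE, edgeR adjusted p = 0.110). In D2 Cry2 was between 131 and 151 CPM in Ctrl and between 119 and 158 in KD, a difference of -0.08 ± 0.11. Cry2 passed once the library labelled D2 KD 3 was dropped, both in B6 (-0.35, edgeR adjusted p = 0.0465) and averaged over strains (-0.29, adjusted p = 0.0330). In each comparison this was the 1 of 12 fits without 1 library that called it (edgeR adjusted p up to 0.315 and 0.318). The B6 comparison holds no D2 library, and its estimate stayed at -0.35. Cry1 was at 14.7, 14.1 and 13.6 CPM in B6 Ctrl and at 10.9, 12.9 and 14.1 in B6 KD, with overlapping groups and a difference of -0.16 ± 0.22. In D2 its highest and lowest libraries were both labelled KD, D2 KD 1 at 20.6 CPM and D2 KD 2 at 9.63, with Ctrl between 13.04 and 15.9.

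The activators of the loop had the B6 estimates nearest to 0. Arntl was at 42.9, 42.1 and 37.3 CPM in B6 Ctrl and at 44.3, 40.03 and 41 in B6 KD. The groups overlapped fully and the difference was 0.04 ± 0.10 (SE, edgeR adjusted p = 0.882). In D2 it was at 50.6, 46.3 and 45.6 CPM in Ctrl and at 49.13, 38.6 and 39.2 in KD, a difference of -0.17 ± 0.10 with D2 KD 1 inside the Ctrl range. Clock was between 49.7 and 77.6 CPM in B6 Ctrl and between 53.9 and 61.1 in B6 KD, a difference of -0.04 ± 0.22. In D2 Clock was between 49.6 and 80.3 CPM in Ctrl and between 48.3 and 70.9 in KD, so that neither strain separated the treatments.

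The REV-ERB genes, nuclear receptors that repress Arntl, did not share an order of libraries in B6. Nr1d2 was at 99.1, 100.4 and 115.7 CPM in B6 Ctrl and at 90.3, 91.1 and 63.7 in B6 KD, with no overlap and a difference of -0.36 ± 0.30 (SE, edgeR adjusted p = 0.535). Nr1d1 was at 94.9, 99.5 and 86.4 CPM in B6 Ctrl and at 86.2, 77.1 and 102.1 in KD, so that KD 3, the lowest B6 library for Nr1d2, was the highest for Nr1d1. In D2 both had their lowest value in D2 KD 1. Nr1d1 was at 109, 98.9 and 106 CPM in D2 Ctrl and at 60.1, 110.2 and 121 in KD. Nr1d2 was at 110, 129 and 83.3 CPM in D2 Ctrl and at 46.6, 112 and 122 in KD. The D2 estimates were -0.10 ± 0.21 for Nr1d1 and -0.20 ± 0.30 for Nr1d2, and without D2 KD 1 they turned to 0.14 and 0.11.

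Dbp, a D-box activator and a direct target of the loop with a large daily amplitude in many tissues, had the widest spread of the members. In B6 it was at 37.7, 35.8 and 32.6 CPM in Ctrl and at 34.8, 25.8 and 16.8 in KD. The groups overlapped through KD 1, and the difference was -0.46 ± 0.39 (SE, edgeR adjusted p = 0.547). It was -0.25 without B6 KD 3 and -0.77 without B6 KD 1. In D2 it was at 24.2, 24.7 and 27.5 CPM in Ctrl and at 10.1, 31.4 and 38.6 in KD, so that 1 KD library was below and 2 were above all Ctrl libraries. The D2 difference of 0.07 ± 0.39 was 0.45 without D2 KD 1 and -0.29 without the library labelled D2 KD 3. Its sign in D2 thus turned on single libraries.

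**Figure D2:**
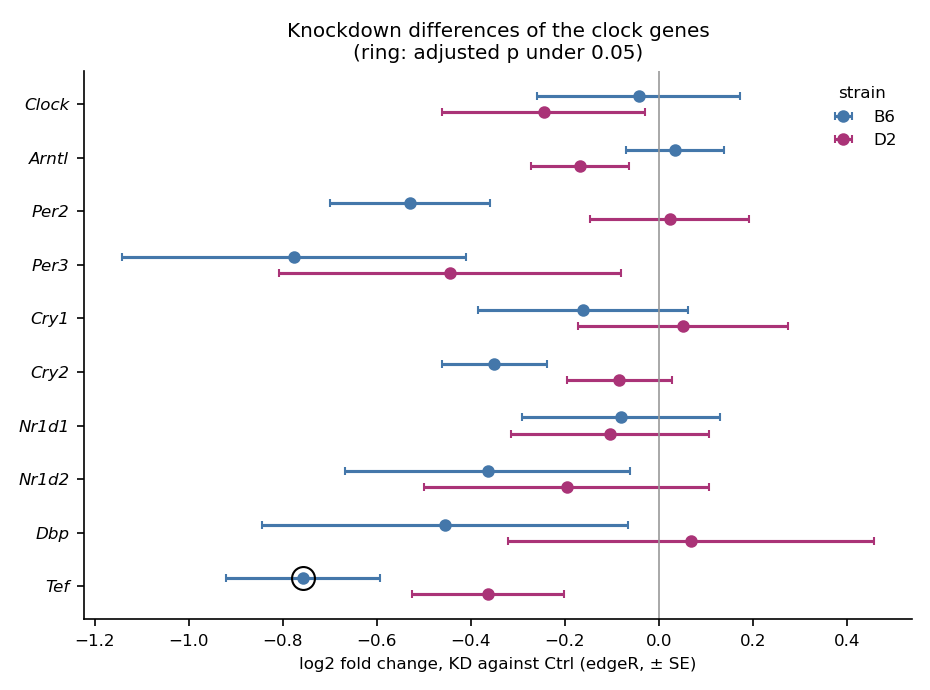
Log2 fold change of KD against Ctrl for each clock gene (horizontal axis, edgeR estimate with its SE) in B6 (upper point of each pair) and D2 (lower point). The ring marks an adjusted p under 0.05, which Tef in B6 had at -0.76, and the D2 points lay between -0.44 for Per3 and 0.07 for Dbp.

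Over the members as a group, 9 of 10 had a lower estimate in B6 KD, with a median log2 fold change of -0.36 beside 0.0025 over all genes tested. By libraries, 4 of 10 members (Per3, Cry2, Nr1d2 and Tef) had every B6 KD library below every B6 Ctrl library, as did 14% of all genes. In D2 this held for 1 of 10 (Tef), as for 3.03% of all genes. In D2, 7 of 10 estimates were lower with a median of -0.14, and 0 of 10 members passed in a comparison where 0% of all genes and 452 without adjustment were under 0.05. Averaged over strains, 10 of 10 estimates were lower with a median of -0.21, and 0 of 10 passed where 0% of all genes and 3046 without adjustment were under 0.05. For the difference between strains in the KD change, 0 of 10 passed where 0% of all genes and 937 without adjustment were under 0.05. DESeq2 called Tef averaged over strains and Tef, Per2 and Cry2 in B6, where it called 1688 genes. It called no member in D2, where it called 1 gene, and none for the difference between strains, where it called 11. A limma-voom fit that weights the libraries, chosen after seeing the data, called the same 3 members in B6 and also Tef and Cry2 averaged over strains.

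Of 24 further clock genes, 2 were called in B6 KD, both lower, where 2.64% of all genes were called. Per1, the third Per gene, was at 119, 109 and 110 CPM in B6 Ctrl and at 78.1, 59.5 and 64.6 in B6 KD, and changed by -0.74 ± 0.16 (SE, edgeR adjusted p = 0.0453). Thra, a thyroid hormone receptor gene on the strand opposite Nr1d1, changed by -0.43 ± 0.09 (adjusted p = 0.0379). Both calls were lost with a covariate. The estimate of Per1 was then -0.73 with the total count, -0.69 with the choroid plexus score and -0.24 with the mouse number, and that of Thra -0.42, -0.43 and -0.31. Leaving out 1 library lost the call of Per1 in 9 and that of Thra in 7 of 12 fits. Hlf, the third D-box activator and named after its values were seen, was at 198, 221 and 217 CPM in B6 Ctrl and at 116, 107 and 48.8 in B6 KD, without overlap, and did not pass in edgeR (-1.22 ± 0.44, adjusted p = 0.145), while DESeq2 called it (-1.24, adjusted p = 0.0356). The median of the 24 in B6 was -0.05, and edgeR called none of them in D2 or averaged over strains. Averaged over strains, DESeq2 called Per1 (-0.47, adjusted p = 0.00703) and Thra (-0.34, adjusted p = 6.31e-06), as did limma-voom with sample weights. Of the 11 alternative settings with all libraries, 2 also called Csnk1e and 1 called Hlf averaged over strains. In B6, 2 of them called Csnk1e, 1 called Bhlhe40 and 1 called Ciart.

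Within groups, 8 of 10 members had a larger spread between libraries than the median gene. The SD of log2(CPM + 1) around the group means was 0.56 for Dbp, 0.51 for Per3 and 0.44 for Nr1d2, which put them at percentiles 95.5, 94.2 and 92.0 of the 14181 genes with a mean of at least 1 CPM. Arntl, at 0.12, was at percentile 29.0 and Cry2, at 0.14, at percentile 36.3. Over all 10 members the median SD was 0.29 against 0.17 for those 14181 genes. Much of this spread lay in 2 KD libraries, B6 KD 3 and D2 KD 1, singled out after their values were seen. Without both, the median SD was 0.18 for the members and 0.15 for the genes, and Dbp was at percentile 57, Nr1d2 at 66.2, Per3 at 83.8, Tef at 43.2 (from 64.8) and Nr1d1 at 22.0 (from 80.4). Members above the median gene then numbered 6 of 10.

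D2 KD 1 was the lowest of the 6 D2 libraries for 6 of 10 members, namely Per3, Cry2, Nr1d1, Nr1d2, Dbp and Tef. Its Dbp was 2.39-fold below the next lowest D2 library, its Per3 1.83-fold, its Nr1d2 1.79-fold and its Nr1d1 1.65-fold. Its Cry1 was the highest in D2 and its Arntl the second highest. In B6, KD 3 was the lowest library for Per3, Nr1d2, Dbp and Tef, with Dbp 1.54-fold and Per3 1.72-fold below the next lowest. B6 KD 3 also had the weakest knockdown in B6, with Hp1bp3 at 259 CPM against 185 and 182 in KD 1 and KD 2. Its interferon response genes summed to 270 CPM, against 704 and 940. A relation of knockdown strength to the clock genes was not tested. B6 KD 3 and D2 KD 1 shared a low Hlf, at 48.8 and 50.6 CPM. They parted at Nr1d1, which lay 0.21 above the group mean in B6 KD 3 and 0.62 below it in D2 KD 1 (log2). Both were among the 7 libraries with high choroid plexus markers, as was the library labelled D2 KD 3, whose Dbp, Nr1d1, Cry2 and Per2 were the highest in D2. The part of these markers in the spread was not tested.

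**Figure D3:**
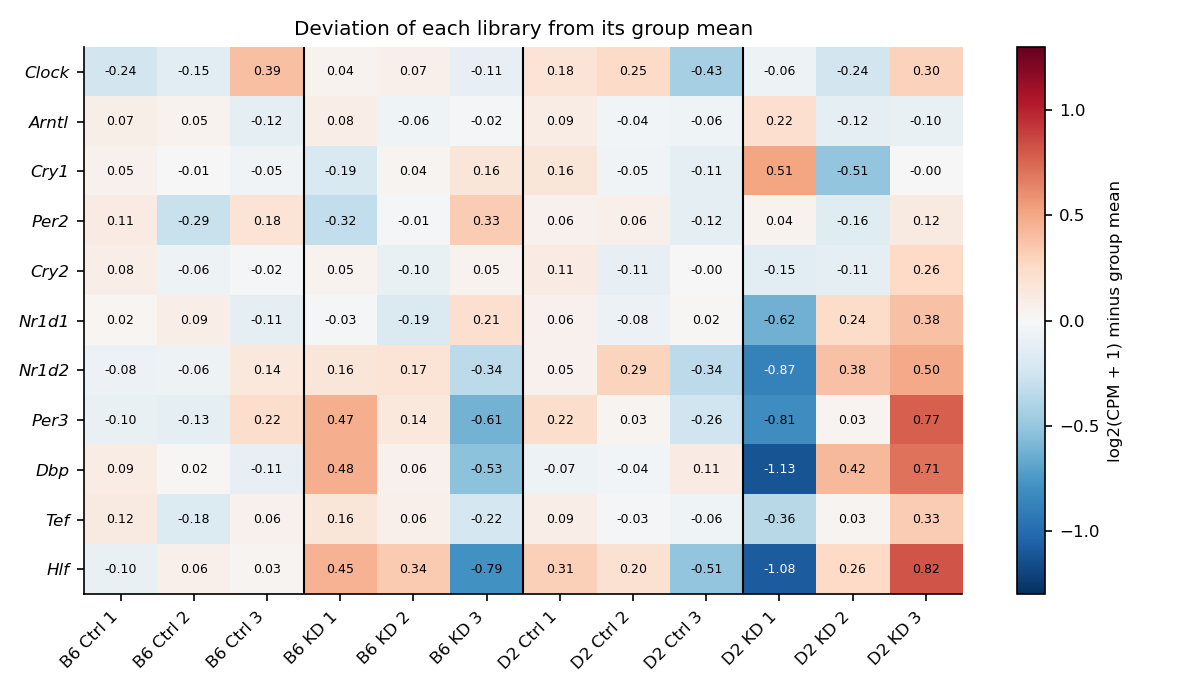
Deviation of each library (columns) from its group mean in log2(CPM + 1), for the 10 clock genes and Hlf (rows), with lower values in blue and higher values in red. D2 KD 1 was lowest for Dbp at -1.13 and above its group mean for Cry1 at 0.51 and Arntl at 0.22.

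The last question on the libraries was whether Arntl and Dbp moved in opposite directions within groups, as transcripts of opposite phase do in samples of different times of day. The deviations of both genes from their group means gave Pearson r = -0.57 (exact permutation p = 0.319, 2-sided, 1296 pairings within groups) and Spearman rho = -0.36 (exact permutation p = 0.404) over 12 libraries. This was the 1 relation tested, so that adjustment leaves its p as it is. The negative sign rested on D2 KD 1, since r was 0.37 without it (exact permutation p = 0.350). Without the libraries farthest from the median on Arntl, D2 Ctrl 1 and D2 KD 1, r was 0.51. The log2 ratio of Dbp to Arntl was between -0.24 and -0.19 in B6 Ctrl, between -1.29 and -0.35 in B6 KD and between -1.07 and -0.73 in D2 Ctrl. In D2 KD it was -2.28, -0.30 and -0.02, which spanned the values of all other groups. With no collection time in the labels, time of day itself was not tested, and the 3 Ctrl libraries of each strain kept this ratio within a narrower range than the KD libraries did.

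**Figure D4:**
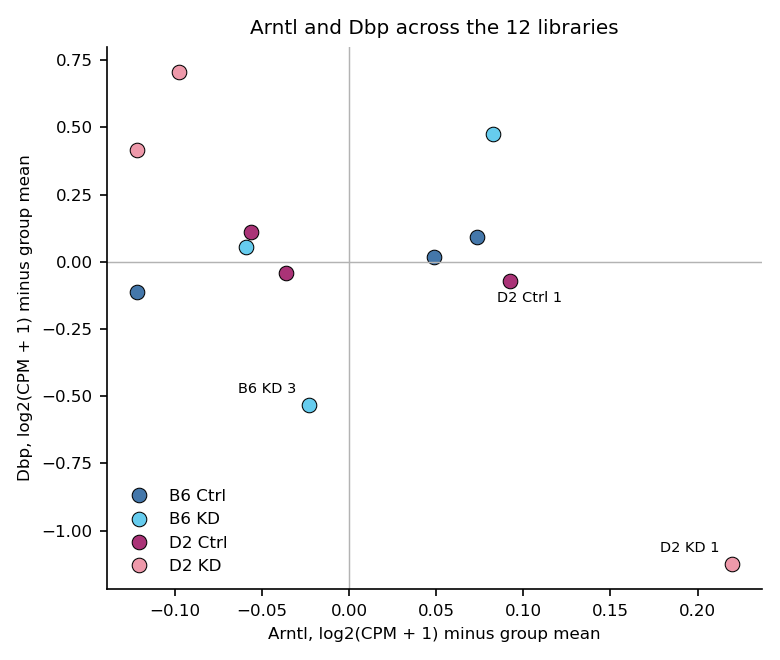
Arntl (horizontal axis) and Dbp (vertical axis) in each of the 12 libraries, as deviations from the group mean in log2(CPM + 1), coloured by group. D2 KD 1 stands alone at the lower right, with 0.22 for Arntl and -1.13 for Dbp, and the correlation of -0.57 became 0.37 without it.

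Other pairs are given as a description over the same 12 libraries, which share depth and tissue makeup. The deviations of Dbp had r = 0.86 with those of Per3, 0.85 with Nr1d2, 0.86 with Tef and 0.72 with Nr1d1, and r = -0.78 with Cry1. With B6 KD 3 and D2 KD 1 left out, these values were 0.32, -0.31, 0.39, 0.75 and 0.07. Per3 and Tef had r = 0.93 with all libraries and 0.76 without those 2. The genes with the highest r with Dbp among the 14180 others at a mean of at least 1 CPM were Tmem145 (0.97), Rtbdn (0.96), Sncb (0.96), Mettl7a1 (0.94) and Ccdc136 (0.94), and those with the lowest were Hey1 (-0.97), Thrap3 (-0.96), Cacna1h (-0.95), Cxxc5 (-0.95) and 2810047C21Rik1 (-0.94). Without B6 KD 3 and D2 KD 1 the r of these genes ranged from 0.14 (Ccdc136) to 0.84 (Tmem145) at the top and from -0.80 (Hey1) to -0.31 (Cxxc5) at the bottom. Per1 ranked 35th from the top with all libraries and 48th without those 2, while Hlf went from 56th to 6650th, Tef from 58th to 2392nd, Per3 from 63rd to 2963rd and Nr1d2 from 70th to 11344th. For Arntl the highest included Insm1 (0.90), AI118078 (0.88), Mtif2 (0.85) and Brat1 (0.85) and the lowest Tmc7 (-0.96), Park2 (-0.93), Mab21l1 (-0.88), Gm5468 (-0.88) and Anapc10 (-0.85). Without those 2 libraries their r ranged from 0.69 (AI118078) to 0.90 (Brat1) at the top and from -0.90 (Tmc7) to -0.64 (Gm5468) at the bottom. With Arntl, the r of Nr1d1 was -0.60 with all libraries and 0.80 without those 2, that of Nr1d2 -0.67 and -0.11, and that of Cry1 0.68 and 0.23.

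Genes that respond to stress hormones, neuronal activity or temperature also follow the state of an animal when its tissue is taken, and were read beside the clock genes. Of 8 glucocorticoid-responsive genes 0 passed in B6 KD, and those with the smallest p were Cdkn1a (1.34, edgeR adjusted p = 0.0871), Zbtb16 (-0.48, 0.154), Tsc22d3 (-0.58, 0.276) and Ddit4 (-0.24, 0.410). Of 12 immediate early genes, switched on by neuronal activity, 0 passed and 11 had a lower estimate, with Nr4a1 (-1.18, edgeR adjusted p = 0.0515), Arc (-1.21, 0.0556), Dusp1 (-0.83, 0.198) and Npas4 (-1.02, 0.218) at the smallest p. Of 6 temperature-responsive genes 3 passed in B6 KD, where 2.64% of all genes did, and all 3 were lower. They were the heat shock genes Dnajb1 (-0.63 ± 0.12, edgeR adjusted p = 0.0362), Hspa1a (-0.95 ± 0.21, adjusted p = 0.0447) and Hspa1b (-0.83 ± 0.18, adjusted p = 0.0447). The other 3, Cirbp, Rbm3 and Hsph1, had higher estimates and did not pass. With the total count, choroid plexus score or mouse number as covariate 0 genes were called in B6, so these calls were lost. In D2 none of the 26 genes of these lists passed. Hspa1a and Hspa1b are near-identical copies, and their counts are uncertain for that reason.

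The second comparison asked whether the strains differed, and no member passed the test. In Ctrl mice 0 of 10 members passed, where 14% of all genes were called, and averaged over treatments 0 of 10 passed, where 21.3% of all genes were called. The largest Ctrl difference was in Dbp, at 72.0% of its B6 level in D2 (-0.47 ± 0.39, edgeR adjusted p = 0.554). With B6 KD 3 and D2 KD 1 left out, the estimate stayed at -0.47 and passed (edgeR adjusted p = 0.0451). Neither library belongs to a Ctrl group, and both were singled out after their Dbp values were seen. Leaving them out narrowed the spread that all groups share, so this p was not read as a strain difference in Dbp. The Ctrl groups of Dbp did not overlap, and neither did those of Arntl (37.3 to 42.9 CPM in B6, 45.6 to 50.6 in D2). The share of all genes without overlap between strains was not counted. Per2 differed by -0.31 ± 0.17, Per3 by 0.25 ± 0.36, Arntl by 0.22 ± 0.10 and the other 6 by between -0.16 and 0.19. Nr1d1 averaged over treatments was 0.15 ± 0.15 higher in D2 (edgeR adjusted p = 0.578), and it passed at 0.29 without D2 KD 1 (adjusted p = 0.0348). The median over the members was 0.02 in Ctrl, the same to 2 decimals as that over all genes.

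Among the 24 further clock genes, 6 differed between strains in Ctrl, where 14% of all genes were called. Noct (-2.93 ± 0.16), Rora (-3.92 ± 0.26), Arntl2 (-1.57 ± 0.19) and Thra (-0.60 ± 0.09) had the smallest p (edgeR adjusted p from 2.93e-07 to 0.000548). Rora, a nuclear receptor that activates Arntl, was at 45.9, 49.6 and 51.9 CPM in B6 Ctrl and at 3.44, 2.49 and 3.70 in D2 Ctrl. The other 2, named after their values were seen, were Wee1, higher in D2 (0.91 ± 0.19, edgeR adjusted p = 0.00619), and Ciart, lower in D2 (-0.97 ± 0.26, adjusted p = 0.0283). The call on Ciart was lost with the total count (-0.84, edgeR adjusted p = 0.110), with the choroid plexus score (-0.93, adjusted p = 0.0598) and with the mouse number (0.045, adjusted p = 0.998), and 7 of 12 fits without 1 library kept it. With the mouse number as covariate the calls on Wee1 (1.08, edgeR adjusted p = 0.247) and Thra (-0.48, adjusted p = 0.240) were lost too. Over the 11 alternative settings with all libraries, Arntl2 kept its Ctrl call in 10, and Noct and Rora kept theirs in all 11. Noct, Rora, Arntl2, Thra and Wee1 also differed averaged over treatments, where 21.3% of all genes were called. Reads of each strain were aligned to the genome of that strain, so a gene's level across strains also depends on what each reference holds, and its part here was not tested.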

How the data were processed

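Libraries were made from total hippocampal RNA with an mRNA kit and sequenced by the authors, and D2 reads were aligned to a DBA/2J genome. Expected counts per gene were estimated with RSEM 1.2.12 and Bowtie2 2.2.0 by the authors, per the submitters' processing notes, which name GRCm38 and mm10. The deposited expected counts are not normalized and need not be whole numbers. The authors also deposited a signal, the DESeq2 normalized count, which equals the expected count without its decimals divided by 1 size factor per library (0.584 to 1.35). Multiplying back gave whole reads, within 0.01, for 100% of 266484 values.

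Expected counts were rounded. After filterByExpr, 15853 genes were tested by quasi-likelihood in edgeR 4.0.16 (R 4.3.3, TMM, robust) with 1 mean per group, 6 comparisons and Benjamini-Hochberg adjustment over all genes at 0.05. SEs are the fold change over the square root of F. Alternatives were DESeq2 1.42.0, limma 3.58.1 (voom), other settings of edgeR, 3 covariates and 12 fits without 1 library. The fits were tested on simulated data. Groups came from the strain and treatment labels, and replicates were numbered in order of deposit. Library pairs within groups differed beyond sampling noise (chi-square per degree of freedom 22.4 to 106). The labels do not say whether mice shared a litter, so p-values measure the spread between these mice.

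The members and lists were chosen with earlier results of these data known. Named genes were the 10 members, called genes of the other lists (the 4 with the smallest p where more than 4 or none were called), and the 5 genes with the highest and lowest r with Arntl and with Dbp. Of these, 1 gene is not reported here. Gene positions are from GENCODE M21. Symbols that had turned into dates (27) and older symbols (2) were restored from Ensembl identifiers. Counting error at these totals was small beside the spread between mice.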

Additional observations from a re-analysis of the deposited data

How the results depend on the processing

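The count of genes called in B6 by the edgeR fit, 418, was 1688 with DESeq2, 2304 with limma-voom with sample weights, 0 with the total count, choroid plexus score or mouse number as a covariate, and between 0 and 790 without 1 library (790 without B6 KD 3, 673 without D2 KD 3, 237 without B6 Ctrl 2, 124 without D2 KD 1, 45 without D2 Ctrl 2 and 0 without B6 Ctrl 1, B6 Ctrl 3, B6 KD 1, B6 KD 2 or D2 Ctrl 1). The share called higher was 66.7%, against 54.2% with DESeq2 and 56.6% with sample weights. Averaged over strains, 0 genes became 1241 with DESeq2, 15 with the newer quasi-likelihood method, 1598 with sample weights, 9 without both B6 KD 3 and D2 KD 1, and between 0 and 799 without 1 library (799 without D2 KD 3, 400 without B6 KD 3, 326 without D2 Ctrl 3). In D2, 0 became 1 with DESeq2 and between 0 and 1 without 1 library, and 0 for the difference between strains became 11 with DESeq2. For D2 against B6 in Ctrl, 2216 became 563 with the mouse number and between 1660 and 2446 without 1 library. The r of Arntl and Dbp, -0.57, was 0.51 without the libraries farthest from the median on Arntl, 0.49 without both B6 KD 3 and D2 KD 1, and between -0.76 and 0.37 without 1 library. The sample weights, the dropped decimals and the fits without 2 libraries were chosen after seeing the data. The causes of these changes were not tested, except that fits without a library hold fewer samples. Mouse numbers of KD and Ctrl do not overlap within a strain, nor do those of B6 and D2 within Ctrl. In these comparisons the mouse number takes up the difference under test. Calls lost and signs turned with this covariate therefore cannot be told apart from that design. No paired analysis was possible because no mouse number of the labels occurs in more than 1 group. Among the members' estimates with all libraries, 614 kept their sign and side of the threshold, 36 turned sign, 7 newly passed and 3 no longer passed. Without 1 library 670 kept both, 38 turned sign, 5 newly passed and 7 no longer passed. With 3 mice a group, differences smaller than the spread between mice could not be detected.

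With B6 KD 3 and D2 KD 1 left out the sign of the log2 fold change turned for the knockdown averaged over strains in Dbp (0.10), for the knockdown in D2 in Per2 (-0.0068), Cry1 (-0.27), Nr1d1 (0.14) and Nr1d2 (0.12), for the difference between strains in the knockdown change in Nr1d1 (0.36), for D2 against B6 averaged over treatments in Per2 (0.064) and Cry2 (0.032). With mouse number as covariate the sign of the log2 fold change turned for the knockdown in B6 in Clock (0.061), Arntl (-0.35), Per3 (0.0069), Nr1d1 (0.70), Nr1d2 (0.42) and Dbp (0.71), for the knockdown in D2 in Arntl (0.10), Per2 (-0.10) and Dbp (-0.84), for the difference between strains in the knockdown change in Arntl (0.45), Per3 (-1.09), Cry2 (-0.15), Nr1d2 (-1.23), Dbp (-1.55) and Tef (-0.18), for D2 against B6 in Ctrl in Arntl (-0.16), Cry1 (-0.48), Cry2 (0.072), Dbp (0.63) and Tef (0.16). With limma-voom with sample weights the sign of the log2 fold change turned for the knockdown in B6 in Clock (0.055), for the knockdown in D2 in Per2 (-0.010), Cry1 (-0.015) and Dbp (-0.27), for the difference between strains in the knockdown change in Per3 (-0.22) and Nr1d2 (-0.32), for D2 against B6 averaged over treatments in Per2 (0.075), Nr1d2 (-0.041) and Tef (-0.021). With limma-voom the sign of the log2 fold change turned for the knockdown in D2 in Cry1 (-0.056) and Dbp (-0.11). With total count as covariate the sign of the log2 fold change turned for the knockdown in D2 in Per2 (-0.034), for D2 against B6 in Ctrl in Cry1 (-0.031) and Nr1d2 (-0.010), for D2 against B6 averaged over treatments in Cry2 (4.7e-05). With choroid plexus score as covariate the sign of the log2 fold change turned for D2 against B6 in Ctrl in Cry1 (-0.10).

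Without 1 library at a time other estimates took both signs. For the knockdown averaged over strains these were Cry1 from -0.23 to 0.060 and Nr1d1 from -0.19 to 0.013. For the knockdown in B6 these were Clock from -0.19 to 0.16 and Arntl from -0.050 to 0.046. For the knockdown in D2 these were Per2 from -0.039 to 0.10, Cry1 from -0.27 to 0.28, Nr1d1 from -0.29 to 0.14, Nr1d2 from -0.43 to 0.11 and Dbp from -0.29 to 0.45. For the difference between strains in the knockdown change these were Per3 from -0.14 to 0.67, Cry1 from -0.084 to 0.45, Nr1d1 from -0.21 to 0.24 and Nr1d2 from -0.066 to 0.51. For D2 against B6 in Ctrl these were Cry1 from -0.081 to 0.070 and Nr1d2 from -0.12 to 0.18. For D2 against B6 averaged over treatments these were Per2 from -0.10 to 0.073, Cry1 from -0.026 to 0.23, Cry2 from -0.10 to 0.020, Nr1d2 from -0.0018 to 0.29 and Tef from -0.051 to 0.13.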
